A study of Mus musculus with 6 samples.

Results

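The glycolytic enzymes that follow hexokinase were examined in mouse pancreatic islets with and without a beta-cell deletion of Ythdc1. The genes were taken by name (Gpi1, Pfkl, Pfkm, Pfkp, Aldoa, Tpi1, Gapdh, Pgk1, Eno1 and Pkm). These 10 symbols matched 11 of the 54532 genes in the table, because the symbol Aldoa is carried by 2 neighbouring loci. Poly(A)-selected RNA was sequenced from whole islets of mice aged 7 weeks. The control group (n = 3 libraries) had the genotype Ythdc1flox/flox, in which the gene is floxed and not deleted. The knockout group (n = 3 libraries) had the genotype Ythdc1-betaKO, called bKO below, and the labels describe the replicates as independent biological samples. Neither the labels nor the design text names the promoter that drives the deletion. The tissue is the whole islet, which beside beta cells contains other endocrine cells, vessels and immune cells.

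Glycolysis splits glucose into pyruvate. Gpi1 converts glucose-6-phosphate to fructose-6-phosphate, the phosphofructokinases commit it to the pathway, Aldoa and Tpi1 produce and interconvert the triose phosphates, and Gapdh, Pgk1, Eno1 and Pkm carry them to pyruvate with production of NADH and ATP. In beta cells this flux couples blood glucose to insulin secretion. Most of the pyruvate is passed to mitochondria in these cells.

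Values are the deposited FPKM, in which the fragments of a gene are divided by its length in kilobases and by a factor for library size. The reads recovered from them came to 16863329 to 18240339 per library. Insulin transcripts took 21.6% to 23.3% of the reads in control and 15.2% to 16.2% in bKO, so the way libraries are scaled matters for small changes. Ythdc1 (chromosome 5, 86804221 to 86836659, GRCm38) was at 5.76, 6.46 and 6.18 FPKM in control and 3.81, 3.79 and 3.87 FPKM in bKO (limma adjusted p = 0.0014). In the description field, bKO replicates 2 and 3 carry the names Ythdc2 and Ythdc3, whereas their genotype label says Ythdc1, and Ythdc1 was low in these libraries as in bKO replicate 1. Markers of beta cells were abundant in all libraries, with a summed level of 202879 to 224711 FPKM for 10 genes in control and 132137 to 141387 FPKM in bKO. Most of this sum was Ins2 and Ins1, at 140980 and 64145 FPKM in control replicate 1 and 82384 and 34329 FPKM in bKO replicate 1.

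In bKO islets the mRNA of Pkm, the muscle-type pyruvate kinase, was lower than in control, and so were those of Pfkm and Pfkl, the muscle- and liver-type phosphofructokinases, and Tpi1, triosephosphate isomerase. These 4 of the 11 genes fell and 0 rose in a limma test of log2(FPKM + 1) with Benjamini-Hochberg adjustment over 15717 genes and a threshold of 0.05. Of all genes tested, 11.4% were called lower and 8.96% higher. The falls were of modest size, with bKO means between 0.769 and 0.872 of the control means. The median log2 fold change of the 11 genes was -0.06, against -0.01 for all genes tested. Whether a fall reflects fewer cells of a type or less RNA per cell cannot be told apart in bulk islets.

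**Figure D1:**
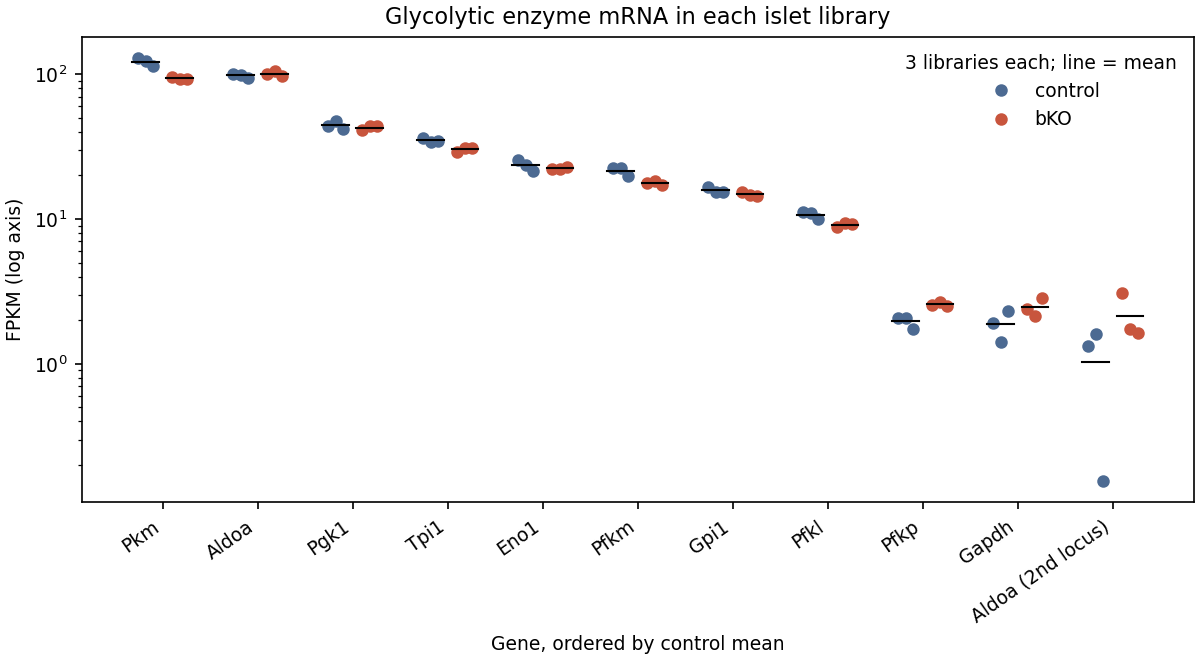
FPKM of the 11 genes (log axis) in each of 3 control and 3 bKO libraries, with group means as lines. Pkm is the highest gene in control and Aldoa in bKO. Gapdh as listed lies among the lowest in both, a level that is uncertain because of its copies.

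The count of lower genes depended on scaling. With libraries scaled by total reads, the median log2 fold change over all genes tested was 0.13 in place of -0.01, and 1 of the 11 genes was lower (Pkm) and 2 higher (Aldoa and Pfkp), beside 4.69% and 23.4% of all genes. With totals taken without 7 islet hormone genes the median of all genes was 0.03, 2 genes were lower (Pkm and Pfkm) and 1 higher (Pfkp), beside 8.12% and 11.6% of all genes. Leaving out single libraries gave 1 to 4 lower genes and 0 higher genes.

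**Figure D2:**
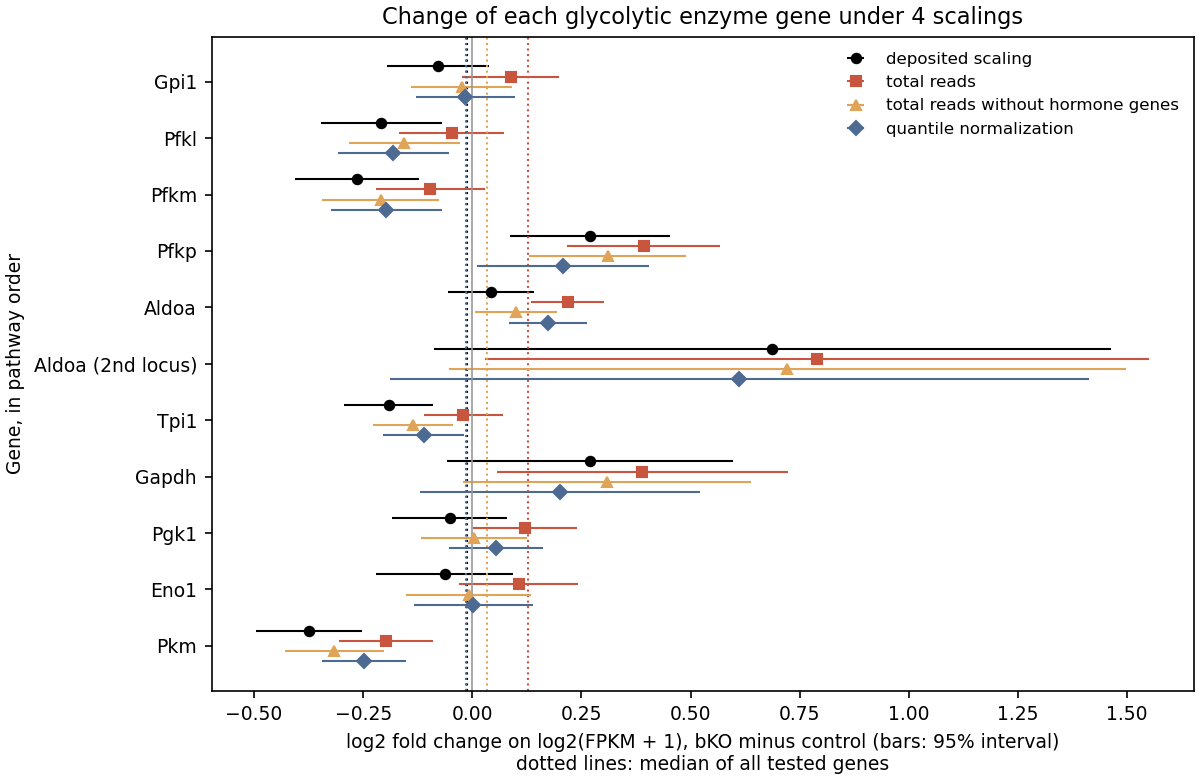
Log2 fold change of each gene (x axis, log2(FPKM + 1), bKO minus control, 95% interval) under 4 scalings of the libraries, with the median of all tested genes dotted. Pkm lies below 0 and below the median of all genes under each scaling, whereas Pgk1 and Eno1 change sign.

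Gpi1, glucose-6-phosphate isomerase (chromosome 7, 34201330 to 34230336), was at 16.7, 15.3 and 15.3 FPKM in control and 15.3, 14.7 and 14.5 FPKM in bKO. The highest bKO library lay just above the lowest control library, and the log2 fold change was -0.08 (95% interval -0.20 to 0.04, limma adjusted p = 0.31). It was 0.088 with libraries scaled by total reads.

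The phosphofructokinase genes encode the subunits of the committing enzyme, which assemble into tetramers. Pfkm, the muscle type (chromosome 15, 98092589 to 98132451), was at 22.4, 22.5 and 19.7 FPKM in control and 17.7, 18.3 and 17.2 FPKM in bKO. Every bKO library lay below every control library. Its log2 fold change was -0.26 with a standard error of 0.060, and Pfkm was called lower (limma adjusted p = 0.023).

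Pfkl, the liver type (chromosome 10, 77986947 to 78010083), was at 11.2, 11.0 and 9.93 FPKM in control and 8.74, 9.37 and 9.26 FPKM in bKO. The groups did not overlap, and Pfkl was called lower with a log2 fold change of -0.21 and a standard error of 0.058 (limma adjusted p = 0.048). With libraries scaled by total reads, the log2 fold changes of Pfkm and Pfkl were -0.10 and -0.05 (limma adjusted p = 0.21 and 0.52). Both calls were also lost without control replicate 1 or 2 or any one bKO library, where Pfkm was at -0.29 to -0.23 (limma adjusted p = 0.050 to 0.077) and Pfkl at -0.23 to -0.18 (limma adjusted p = 0.090 to 0.14). Pfkl also missed the threshold with totals without hormone genes, quantile normalization and no filter on low values (limma adjusted p = 0.088, 0.061 and 0.081). It missed it as well with the replicate number as a block in the fit (limma adjusted p = 0.10). Pfkm was called in 10 and Pfkl in 6 of 16 settings.

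Pfkp, the platelet type (chromosome 13, 6579768 to 6648777), stood on the other side. It was at 2.08, 2.08 and 1.75 FPKM in control and 2.56, 2.67 and 2.49 FPKM in bKO, with every bKO library above every control library. Its log2 fold change was 0.27 (SE 0.077, 95% interval 0.087 to 0.45), and it missed the threshold narrowly (limma adjusted p = 0.0501). Pfkp passed in 5 of 16 settings. With voom on recovered reads, which does not compress low genes, its log2 fold change was 0.39 (limma adjusted p = 0.0010).

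The mixture of the phosphofructokinases can be compared within a library, where scaling cancels. Pfkp made up 5.82%, 5.84% and 5.56% of phosphofructokinase FPKM in control and 8.82%, 8.79% and 8.60% in bKO. Pfkm made up 62.8%, 63.2% and 62.8% in control and 61.0%, 60.3% and 59.4% in bKO. Both sets of shares were separate between the groups, whereas the FPKM shares of Pfkl, 31.3% ± 0.34 in control and 31.0% ± 0.92 in bKO (SD, n = 3), overlapped.

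The shares of Pfkp and Pfkm each gave p = 0.1 in a two-sided exact permutation test, the smallest that 3 against 3 libraries allow (0.15 adjusted over the 3 shares), and that of Pfkl gave p = 0.6. The difference in the Pfkp share was 3.00 percentage points and ran from 2.91 to 3.07 when each library was left out. In shares of recovered reads, which are not divided by gene length, it was 6.79 points (15.5% ± 0.41 in control and 22.3% ± 0.39 in bKO, SD, n = 3). On that scale the Pfkl shares did not overlap either, at 42.1%, 41.7% and 42.6% in control and 38.4%, 39.2% and 40.5% in bKO. Pfkm then made up 42.4% ± 0.18 in control and 38.3% ± 0.65 in bKO (SD, n = 3). Each of the 3 read shares gave p = 0.1 in the exact permutation test. FPKM divides by listed gene lengths of 13401 bases for Pfkp, 6675 for Pfkl and 3340 for Pfkm. Their coding sequences were 2352, 2340 and 2340 bases long. The size of each isozyme's share therefore depends on the length used, and transcript lengths in these islets were not measured. The ratio of Pfkm to Pfkp FPKM was 11.0 ± 0.29 in control and 6.90 ± 0.031 in bKO (SD, n = 3). The 3 genes together came to 34.2 ± 2.4 FPKM in control and 29.4 ± 0.78 FPKM in bKO.

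**Figure D3:**
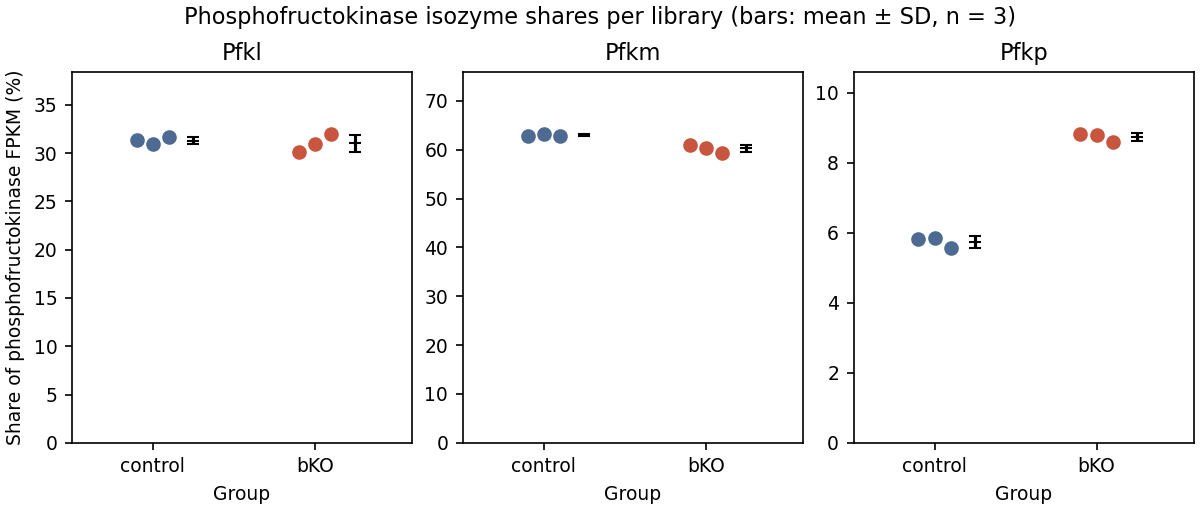
Share of each isozyme in the summed phosphofructokinase FPKM (y axis, %, each panel from 0 with its own range) in 3 control and 3 bKO libraries, with mean ± SD. The Pfkp share is 5.56% to 5.84% in control and 8.60% to 8.82% in bKO.

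Coding sequences of the 3 phosphofructokinase genes shared no 50-base stretch with other annotated genes, so reads of these genes within coding exons have 1 annotated source. Exons of Pfkm overlap those of Senp1 and Gm26513 over 10.7% of their length, and those of Pfkp overlap Pitrm1 over 5.58%. Whether counting used strand is not stated, so reads there may belong to either gene. The Pfkp promoter is shown because this isozyme alone among them had every bKO library above control. The 100 bases before its RefSeq start (chr13:6648772-6648871, minus strand, GRCm38.p6) are printed 5′ to 3′, with capitals at matches to ACGTG or GCGTG on either strand, the core of the hypoxia response element.

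Pfkp: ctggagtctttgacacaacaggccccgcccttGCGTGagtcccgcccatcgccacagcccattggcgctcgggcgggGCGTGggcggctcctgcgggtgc

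In the 250 bases before the start, Pfkp held 3 such matches. At least 1 was found for 6 of the 10 enzymes (Pfkl, Pfkm, Pfkp, Gapdh, Pgk1 and Eno1) and in 38.6% of 32851 RefSeq promoters. Another motif, GGGCGG on either strand, was also searched and is not capitalized above. Pfkp held 4 matches to it in the 250 bases. At least 1 was found for 5 of the 10 enzymes (Gpi1, Pfkp, Tpi1, Pgk1 and Pkm) and in 32.7% of the promoters. Binding at matches to either motif was not tested. The 250 bases of Pfkp were 62.8% G or C, against a median of 52.4% for all promoters. Those of the 10 enzymes ranged from 36.4% (Pfkm) to 66.4% (Pkm), and the comparison was not matched for this content. For genes with several RefSeq starts, the one nearest to the start in the table was searched. Searched starts lay up to 694 bases (Gapdh) from that position and need not be those used in islets. The matches and base content found depend on this choice. Of 14 tested genes of the hypoxia response outside glycolysis, 2 fell and 0 rose, with a median log2 fold change of -0.02. Among all genes tested, 11.4% were called lower and 8.96% higher. The 2 hypoxia genes were Hilpda and P4ha1 (log2 fold changes -0.53 and -0.19), named after their values were seen.

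Aldoa, the main aldolase (ENSMUSG00000030695, chromosome 7, 126795234 to 126800751), was at 101, 98.5 and 94.6 FPKM in control and 101, 104 and 97.7 FPKM in bKO. The groups overlapped, with a log2 fold change of 0.04 (95% interval -0.055 to 0.14, limma adjusted p = 0.51). With libraries scaled by total reads it was 0.22 (limma adjusted p = 0.0059) and with quantile normalization 0.17 (limma adjusted p = 0.023).

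The locus upstream that carries the same symbol (ENSMUSG00000114515, 126800790 to 126809108) had 17, 22 and 2 reads in control and 47, 25 and 24 in bKO. Its FPKM were 1.32, 1.598 and 0.154 in control and 3.06, 1.73 and 1.62 in bKO. All bKO libraries were above all control libraries, but the interval of the log2 fold change was wide (0.69, 95% interval -0.089 to 1.46, limma adjusted p = 0.19). Without control replicate 3, which had the 2 reads, it was 0.32.

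Tpi1 (chromosome 6, 124810586 to 124814296) converts dihydroxyacetone phosphate to glyceraldehyde-3-phosphate. It was at 36.1, 33.9 and 34.6 FPKM in control and 29.2, 30.9 and 31.0 FPKM in bKO, without overlap. The log2 fold change of -0.19 had a standard error of 0.043 (limma adjusted p = 0.023). Tpi1 was called in 9 of 16 settings. The call was lost with libraries scaled by total reads (-0.02, limma adjusted p = 0.72), with totals without hormone genes (-0.14, limma adjusted p = 0.05002), with quantile normalization (-0.11, limma adjusted p = 0.096), and without control replicate 1 or bKO replicate 1 or 2 (-0.20 to -0.16, limma adjusted p = 0.056 to 0.077). It was also lost with the replicate number as a block in the fit (-0.19, limma adjusted p = 0.078). The ratio of Tpi1 to Aldoa FPKM within a library, which scaling does not touch, was 0.356 ± 0.011 in control and 0.301 ± 0.015 in bKO (SD, n = 3). Such a ratio does not tell which of the 2 genes moved. With libraries scaled by total reads, Tpi1 was at -0.02 and Aldoa at 0.22 (limma adjusted p = 0.72 and 0.0059).

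Gapdh, glyceraldehyde-3-phosphate dehydrogenase (chromosome 6, 125161715 to 125166467), is known as a highly abundant mRNA, yet it was listed at 1.92, 1.40 and 2.33 FPKM in control and 2.41, 2.14 and 2.84 FPKM in bKO. These values rest on 128, 100 and 156 reads in control and 191, 160 and 217 in bKO. The groups overlapped (log2 fold change 0.27, 95% interval -0.058 to 0.60, limma adjusted p = 0.22).

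The Gapdh coding sequence has 150 near copies among GENCODE vM21 transcripts of other genes, each at least 90% identical over at least 50% of its length, and 100% of its 50-base stretches occur exactly in at least 1 other gene. Of the copies, 82 had reads, and together they had 634 to 725 reads in control and 738 to 873 in bKO, more than Gapdh itself in each library. One copy is a transcript of the protein-coding gene Peli2, and the 557 reads of Peli2 over the 6 libraries are part of these sums. The sources do not say how reads with several matches were counted. The listed level of Gapdh and its comparison between the groups are uncertain for this reason.

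A stretch of 60 coding bases shows how close these copies are. It was read from GENCODE vM21 transcripts (Gapdh at chr6:125162491-125162550, minus strand, GRCm38, within 1 exon) and set beside the 3 noncoding copies with the most reads. Capitals mark bases that differ from Gapdh.

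Gapdh: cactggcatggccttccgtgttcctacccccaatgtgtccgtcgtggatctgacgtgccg
3000002C10Rik: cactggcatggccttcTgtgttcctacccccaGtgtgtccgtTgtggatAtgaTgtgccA
Gm5069: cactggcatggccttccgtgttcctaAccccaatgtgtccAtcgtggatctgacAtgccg
Gm7336: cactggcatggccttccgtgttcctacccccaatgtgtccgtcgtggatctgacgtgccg

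The stretch was chosen as the one where the copies differ most from Gapdh, and they differed there at 6, 3 and 0 bases. 3000002C10Rik had 157, 167 and 169 reads in control and 194, 193 and 182 in bKO, in each library but bKO replicate 3 more than Gapdh. Gm7336, a processed pseudogene whose sequence matched the whole coding sequence of Gapdh, had 78, 57 and 63 reads in control and 113, 92 and 79 in bKO.

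Other members share sequence with copies to a lesser degree in reads. All coding 50-base stretches of Pgk1 also occur in other genes (Pgk1-rs7 and Gm5537), as do 83.3% of those of Eno1, 52.9% of those of Pkm, 40.9% of those of Gpi1, 19.5% of those of Aldoa and 13.7% of those of Tpi1. The copies of Pgk1 had 7 to 16 reads per library, against 1527 to 1836 for Pgk1. Those of Eno1 had 80 to 129 reads, against 1856 to 2286 for Eno1. The counting of reads with several matches is not stated, so the levels of Pgk1 and Eno1 are uncertain. Those of Pkm, Gpi1, Aldoa and Tpi1 are uncertain over their shared stretches.

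**Figure D4:**
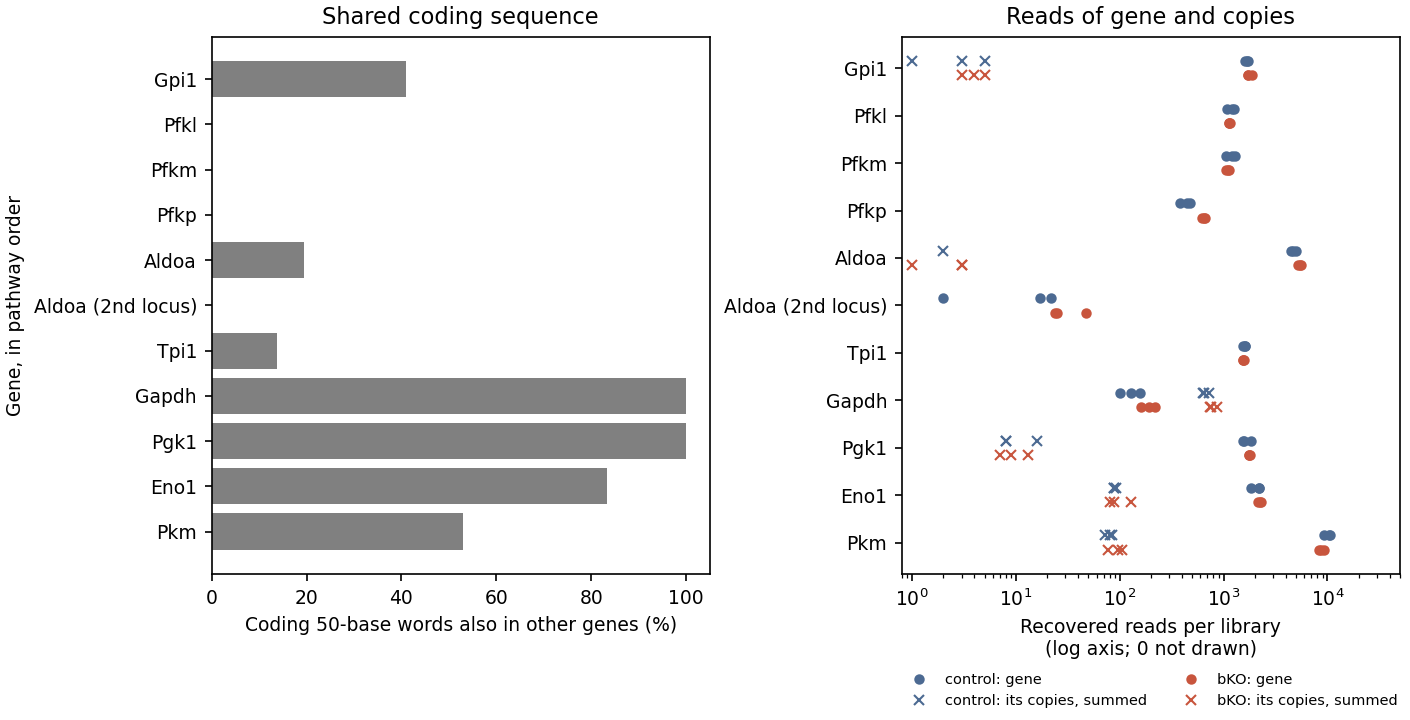
Left, share of each gene's coding 50-base stretches that occur in other annotated genes (x axis, %). Right, recovered reads per library (log axis) of each gene (dots) and of its near copies summed (crosses): Gapdh is the gene whose copies have more reads than the gene.

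Pgk1, phosphoglycerate kinase (chromosome X, 106187100 to 106203699), makes the first ATP of the pathway. It was at 43.6, 47.5 and 42.0 FPKM in control and 40.9, 43.7 and 43.6 FPKM in bKO, and the groups overlapped. The log2 fold change was -0.05 (95% interval -0.18 to 0.079, limma adjusted p = 0.55), and it was 0.12 with libraries scaled by total reads.

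Eno1, alpha-enolase (chromosome 4, 150236721 to 150248879), was at 25.5, 23.5 and 21.3 FPKM in control and 22.1, 22.0 and 22.8 FPKM in bKO, also with overlap. The log2 fold change was -0.06 (95% interval -0.22 to 0.092, limma adjusted p = 0.54), and it was 0.11 with libraries scaled by total reads. Among the enolases, Eno1 made up 53.9% ± 2.5 of the FPKM in control and 51.4% ± 0.23 in bKO, with the neuronal type Eno2 at 18.7% ± 1.7 and 20.4% ± 0.62 and the muscle type Eno3 at 27.4% ± 1.6 and 28.2% ± 0.81 (SD, n = 3). None of these 3 shares was separate between the groups.

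Pkm, which makes pyruvate and the last ATP (chromosome 9, 59656368 to 59679375), was at 129, 122 and 114 FPKM in control and 96.0, 92.2 and 93.3 FPKM in bKO. The lowest control library lay well above the highest bKO library. Its log2 fold change was -0.37 with a 95% interval of -0.49 to -0.25 (limma adjusted p = 0.0040), and the bKO mean was 0.769 of that in control. It was called in 16 of 16 settings, with log2 fold changes of -0.42 to -0.20 and limma adjusted p of up to 0.020.

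The copies of Pkm had 73 to 85 reads per library in control and 77 to 105 in bKO, against 8362 to 10544 for Pkm. Since 52.9% of its coding 50-base stretches occur in other genes, any reads left out for several matches would be in neither number. Pkm exons also overlap Gm49759 on the same strand over 15.3% of their length, and exons of Pklr overlap Hcn3 on the opposite strand over 22.0%. The M1 and M2 isoforms of Pkm come from 1 gene by alternative splicing and cannot be told apart in values per gene. Pklr, the liver and red-cell pyruvate kinase, was at 4.74, 5.11 and 4.67 FPKM in control and 4.44, 4.60 and 4.396 FPKM in bKO (log2 fold change -0.09, limma adjusted p = 0.30), and it made up 3.82% ± 0.26 of pyruvate kinase FPKM in control and 4.56% ± 0.17 in bKO (SD, n = 3).

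The order of the enzymes by FPKM was the same in both groups apart from its top. In control the order of means was Pkm, Aldoa, Pgk1, Tpi1, Eno1, Pfkm, Gpi1, Pfkl, Pfkp, Gapdh and the second Aldoa locus, and in bKO Aldoa stood above Pkm. The places of genes with shared sequence, Gapdh above all, rest on levels that are uncertain as stated above. All places also depend on the listed gene lengths by which FPKM is divided. The ratio of Pkm to Aldoa within a library was 1.29, 1.24 and 1.21 in control and 0.953, 0.884 and 0.956 in bKO. Neighbours whose ranges overlapped were Eno1 with Pfkm in control, and Pfkp with Gapdh and Gapdh with the second Aldoa locus in both groups.

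Of the 11 genes, 4 had every bKO library below every control library and 2 (Pfkp and the second Aldoa locus) every bKO library above, beside 21.6% and 18.5% of all genes tested. The 5 others overlapped.

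Other genes of glycolysis and its branches were taken as a list of 29 from textbook knowledge. Of these, 20 passed the filter, 4 fell, 1 rose and 15 were not called, beside 11.4% lower and 8.96% higher among all genes tested. The median log2 fold change of the 20 was 0.02. The 5 called genes were called in 16 of 16 settings. With libraries scaled by total reads 4 were lower and 8 higher, with a median log2 fold change of 0.17. All genes tested then had 4.69% lower and 23.4% higher, with a median of 0.13.

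G6pc2, the islet glucose-6-phosphatase subunit, which returns glucose-6-phosphate to glucose, was at 1321, 1216 and 1181 FPKM in control and 869, 942 and 857 FPKM in bKO (log2 fold change -0.48, limma adjusted p = 0.0035).

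Fructose-2,6-bisphosphate is the activator of phosphofructokinase. Pfkfb2, a bifunctional kinase and phosphatase for it, was at 15.7, 17.3 and 17.1 FPKM in control and 12.6, 13.0 and 12.3 FPKM in bKO (log2 fold change -0.37, limma adjusted p = 0.0041). Tigar, a phosphatase known to act on it, was at 12.0, 9.87 and 10.5 FPKM in control and 6.72, 8.02 and 7.48 FPKM in bKO (log2 fold change -0.49, limma adjusted p = 0.010). Pfkfb3 was at 1.01 ± 0.086 FPKM in control and 1.49 ± 0.26 FPKM in bKO (SD, n = 3, limma adjusted p = 0.090). Pfkfb4 was at 1.88 ± 0.23 FPKM in control and 1.77 ± 0.14 FPKM in bKO (SD, n = 3, limma adjusted p = 0.71), and Pfkfb1 was under the filter. Exons of Pfkfb2 overlap Gm29427 on the same strand and Yod1 on the opposite strand over 19.5% of their length.

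Downstream of the members, Pcx, pyruvate carboxylase, which feeds pyruvate into the mitochondrial oxaloacetate pool, fell from a mean of 46.6 FPKM (SD 2.0) in control to 34.6 FPKM (SD 1.6) in bKO (n = 3 each), a log2 fold change of -0.42 (limma adjusted p = 0.0023). Pck2, the mitochondrial phosphoenolpyruvate carboxykinase, rose from a mean of 16.1 FPKM (SD 0.73) to 19.6 FPKM (SD 0.39), a log2 fold change of 0.27 (limma adjusted p = 0.0087). Of 11 genes that carry pyruvate into the tricarboxylic acid cycle or control that entry, 1 fell (Pdhb, named after its values were seen) and 0 rose. Among all genes tested, 11.4% were called lower and 8.96% higher.

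Pgam1, the phosphoglycerate mutase between Pgk1 and Eno1, was at 58.4, 56.9 and 54.2 FPKM in control and 54.8, 56.9 and 59.0 FPKM in bKO, with full overlap. The lactate dehydrogenase gene Ldha, which beta cells keep low, was at 3.10, 3.09 and 2.63 FPKM in control and 2.67, 4.30 and 3.73 FPKM in bKO (limma adjusted p = 0.36). Among the isozymes of members, Aldoc had a mean of 3.32 ± 0.53 FPKM in control and 3.37 ± 0.32 FPKM in bKO, Gapdhs, the sperm-type enzyme, at 2.74 ± 0.31 and 3.47 ± 0.23, and Eno4 at 0.855 ± 0.057 and 1.32 ± 0.16 (SD, n = 3, limma adjusted p = 0.90, 0.071 and 0.054).

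The 9 listed genes under the filter were Hk2, Hk3, Hkdc1, Pgk2, Pfkfb1, Slc16a1, Slc16a3, Pck1 and Fbp2. Their highest value in any library was 0.402 FPKM, and Pgk2 had 0 reads in all 6.

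**Figure D5:**
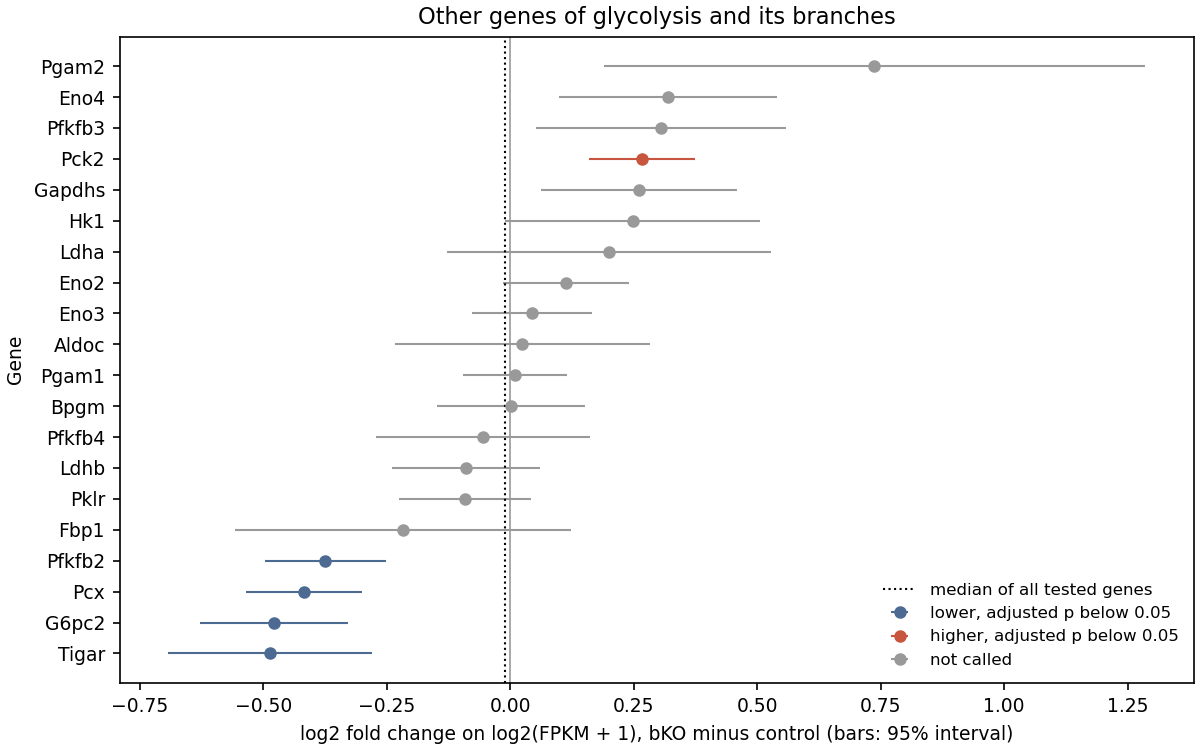
Log2 fold change (x axis, log2(FPKM + 1), bKO minus control, 95% interval) of the 20 tested genes of glycolysis and its branches outside the members. Pfkfb2, Pcx, G6pc2 and Tigar lie below 0 with their whole intervals. Pck2 lies above it, as do Pgam2, Eno4, Pfkfb3 and Gapdhs, which did not pass the adjusted threshold.

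Of the 10 beta-cell markers 7 fell, G6pc2 among them, and 1 rose, and markers of other islet cells also differed. Among all genes tested, 11.4% were called lower and 8.96% higher. The 12 macrophage markers summed to 189 to 211 FPKM in control and 116 to 139 FPKM in bKO (5 of 10 tested fell, 0 rose). The 10 endothelial markers summed to 164 to 191 FPKM in control and 212 to 218 FPKM in bKO (5 rose, 0 fell), and the 6 delta- and PP-cell markers to 9912 to 12102 and 16338 to 19381 FPKM (2 rose, 0 fell). The 8 alpha-cell markers overlapped, at 18549 to 22532 and 16952 to 20230 FPKM (1 fell, 2 rose), as did the 12 acinar markers, at 64.8 to 229 and 127 to 189 FPKM (0 fell, 0 rose). Sums that did not overlap were also found for duct markers, at 51.7 to 57.3 FPKM in control and 115 to 128 FPKM in bKO (1 of 4 tested rose, 0 fell), for lymphocyte markers, at 4.15 to 6.89 and 0.783 to 1.83 FPKM (1 of 1 tested fell), and for erythroid markers, at 33.7 to 42.5 and 43.7 to 60.7 FPKM (3 of 5 rose, 0 fell). The 8 mesenchymal markers overlapped, at 52.4 to 56.5 and 53.0 to 57.7 FPKM (1 rose, 0 fell). Ptprc and Itgam were under the filter in the macrophage list. Their part in the levels of the glycolytic genes was not tested.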

How the data were processed

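Poly(A)-selected RNA of 6 islet libraries was sequenced with paired ends. HISAT2 2.0.5 aligned the reads to GRCm38 and featureCounts 1.5.0-p3 counted them, per the labels and design text. DESeq2 1.20.0 and CASAVA stand in the submitters' processing notes with no role. The authors deposited FPKM per gene. Each value above 0, times gene length and 1 factor per library, was a whole read within 0.01 (100% of values), and these reads were used for depth, copies and voom. 0 columns of other samples were present.

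Groups follow the genotype labels, from which the descriptions of bKO replicates 2 and 3 differ. limma 3.58.1 (R 4.3.3) with a mean-variance trend was fitted to log2(FPKM + 1), bKO against control, for genes that reached 0.5 FPKM in 3 or more libraries, with Benjamini-Hochberg adjustment over all of them. Fold changes on this scale understate those of low genes. All 11 members passed the filter. The members, lists and tests were chosen with earlier results of these data known. The text names all members, called genes of the list of other glycolysis genes, and expressed isozymes; certain genes of that list are not reported here. Pfkfb3, Pfkfb4, Pgam1, Pgam2, Ldha and the genes under the filter were added as description after their values were seen. Near copies were found with BLAST 2.17.0 in GENCODE vM21, which is on the same build. Promoters are from RefSeq, GRCm38.p6, and all 10 symbols matched. Alternatives covered scaling, pseudocount, filter, voom, the replicate number as a block, and each library left out. Other steps ran in Python 3.11.15 with scipy 1.17.1.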

Additional observations from a re-analysis of the deposited data

How the results depend on the processing

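The number of glycolytic enzyme genes lower in bKO was 4, and it was 1 with libraries scaled by total reads, 2 with totals without hormone genes, 2 with quantile normalization, 3 with no filter and 1 to 4 without single libraries. The number higher was 0, and it was 2 with total reads and 1 with totals without hormone genes, quantile normalization, a pseudocount of 0.1, a filter at 1 FPKM, or voom. Of the other glycolysis genes 4 were lower in all 16 settings and 1 higher, which became 8 with total reads, 2 with totals without hormone genes and 4 with voom. Signs that turned were those of Gpi1 (0.088), Pgk1 (0.12), Eno1 (0.11) and Pklr (0.054) with total reads, Pgk1 with totals without hormone genes (0.0044), Pgk1 (0.054), Eno1 (0.0027) and Aldoc (-0.010) with quantile normalization, and Aldoc without control replicate 3 or bKO replicate 1 (-0.082 to 0.084 over single libraries left out). Ldhb (0.071) and Pfkfb4 (0.059) with total reads, and Bpgm and Pgam1 without single libraries (as low as -0.030 and -0.019), turned as well. None of these was called under those alternatives. The share of Pfkl among the phosphofructokinases, bKO minus control, was -0.79 to 0.13 percentage points without single libraries and -2.72 in shares of recovered reads, where those of Pfkm and Pfkp were -4.07 and 6.79.

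With a replicate block, 2077 genes of all tested were called in place of 3192 (1904 to 2783 without single libraries), and 2 of the 11 genes were lower (Pkm and Pfkm) and 0 higher. The replicate numbers showed no visible pairing of the samples. Deviations from the group means of same-numbered libraries correlated at -0.052, -0.014 and -0.073, and the highest correlation of any pair was 0.062. Such deviations cancel out within each group, so these correlations cannot decide whether samples were paired. Of 315 values under alternatives for the 21 genes named by rule (which leaves out Ldhb, Pfkfb4, Bpgm and Pgam1), 272 kept their direction and side of the threshold, 23 lost the call, 10 gained it and 10 turned sign. Low read numbers limit the second Aldoa locus, and copies limit Gapdh, Pgk1 and Eno1, and in part Pkm, Gpi1, Aldoa and Tpi1.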
